A study of Mus musculus with 6 samples.

Results

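Pericentral hepatocyte nuclei were the 391 nuclei, of 1567 in all, whose reads leaned most towards genes of the liver cells around the central vein. An index was computed for each nucleus as its reads of 6 pericentral genes (Cyp2e1, Glul, Oat, Slc1a2, Gulo and Cyp1a2) divided by those reads plus its reads of 6 periportal genes (Cyp2f2, Hal, Sds, Pck1, Gls2 and Hsd17b13). The highest 25% of nuclei by this index in each of 6 libraries were taken, so the choice rests on measured values and the 12 index genes are described here without a test. The lowest 25%, also 391 nuclei, are called periportal nuclei, and 785 nuclei lay between.

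The livers came from female wild-type C57BL/6J mice mated at about 8 weeks of age. The stages were gestation day 0 (G0), gestation at the day given by its label (G14.5) and day 7 after birth in lactating mothers (P7L). Each stage had 1 library labelled as hepatocytes from liver tissue and 1 labelled as hepatocytes from perfusion, made with Smart-seq3xpress, a plate-based method that reads RNA from single wells. The protocol text describes whole hepatocytes picked by hand after collagenase perfusion, whereas the titles name single-nucleus RNA sequencing, and how nuclei were prepared is not given in the sources used here. No label names an animal or says how many mice stand behind a library. The p-values below therefore measure the spread between libraries left after a term for preparation, pooled over the stages, and it may be technical.

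The liver lobule is organised along the flow of blood from the portal vein to the central vein, and hepatocytes differ in enzymes along that path. Cells beside the central vein receive Wnt signals from its endothelium, make glutamine from residual ammonia with glutamine synthetase, and carry much of the cytochrome P450 and bile acid synthesis machinery. Periportal hepatocytes carry more of the urea cycle, gluconeogenesis and amino acid breakdown. The liver of a pregnant or lactating mother faces changed hormones, food intake and demands for lipid and plasma protein, and the comparisons below ask how the pericentral cells differ between those stages.

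Among the pericentral index genes, Cyp2e1 encodes a cytochrome P450 that oxidises ethanol and small solvents, Glul encodes glutamine synthetase, Slc1a2 a glutamate transporter, Gulo the last enzyme of vitamin C synthesis, and Cyp1a2 a P450 that oxidises aromatic amines. Wnt signals act through TCF proteins, which bind the DNA letters CTTTGAA or CTTTGAT. The RefSeq promoter table (GRCm38.p6) gives 300 bases per gene, 250 before the start and 50 after it. A search of both strands for these 7 letters found them in 8.65% of 32851 promoter entries. Of the 6 pericentral index genes, 5 had an entry, and the letters were in 3 of them (Cyp1a2, Cyp2e1 and Slc1a2), against 1 (Hal) of 4 periportal index genes with an entry. Of 24 genes on a list of Wnt-dependent pericentral genes, 16 had an entry and 3 held the letters (Lect2, Sp5 and Tnfrsf19). Of the 15 genes outside the index that leaned most to the pericentral side, 8 had an entry and 1 held them (Sult3a1), against 0 of 7 entries for the 10 leading periportal genes. Absence says only that these letters are not in this window. The promoters of the 3 index genes and of Sult3a1 are shown because they hold these letters, with the TCF letters in capitals on whichever strand they lie. They lie at chr2:102706188-102706487 (Slc1a2, plus strand), chr7:140763569-140763868 (Cyp2e1, plus strand), chr9:57683606-57683905 (Cyp1a2, minus strand) and chr10:33857472-33857771 (Sult3a1, plus strand). The first letter of the motif stands at -207, -135, -244 and -107 from the gene start in that order.
Slc1a2: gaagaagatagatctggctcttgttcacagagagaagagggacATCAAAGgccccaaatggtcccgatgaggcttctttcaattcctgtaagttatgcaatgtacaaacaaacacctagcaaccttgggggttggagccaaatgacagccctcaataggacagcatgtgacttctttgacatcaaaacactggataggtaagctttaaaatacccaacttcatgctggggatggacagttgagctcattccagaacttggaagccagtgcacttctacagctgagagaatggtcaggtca
Cyp2e1: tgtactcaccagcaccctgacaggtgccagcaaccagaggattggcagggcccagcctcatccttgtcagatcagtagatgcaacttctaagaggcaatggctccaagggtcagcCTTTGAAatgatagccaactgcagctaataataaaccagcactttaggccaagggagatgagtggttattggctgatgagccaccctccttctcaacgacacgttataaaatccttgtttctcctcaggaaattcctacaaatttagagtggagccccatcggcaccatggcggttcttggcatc
Cyp1a2: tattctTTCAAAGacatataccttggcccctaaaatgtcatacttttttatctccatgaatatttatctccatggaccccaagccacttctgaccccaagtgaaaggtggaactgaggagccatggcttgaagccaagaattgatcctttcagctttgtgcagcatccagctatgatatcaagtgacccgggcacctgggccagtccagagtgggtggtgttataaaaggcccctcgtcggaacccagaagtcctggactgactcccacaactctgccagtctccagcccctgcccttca
Sult3a1: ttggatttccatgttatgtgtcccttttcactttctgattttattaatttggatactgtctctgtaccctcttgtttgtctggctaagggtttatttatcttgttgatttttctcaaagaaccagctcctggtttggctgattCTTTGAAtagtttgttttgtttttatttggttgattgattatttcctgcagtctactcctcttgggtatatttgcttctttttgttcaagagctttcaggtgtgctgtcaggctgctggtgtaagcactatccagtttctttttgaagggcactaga

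The pericentral nuclei numbered 46 to 77 per library, and their summed reads ran from 56310198 to 106247504 per library. The median reads per pericentral nucleus ran from 725609 to 1301846. No nucleus column was shared between libraries. Markers of 10 hepatocyte genes summed to between 9298 and 15540 counts per 1000000 reads (CPM) in the 6 pericentral sums. The G0 perfusion library stood apart: these markers passed 1% of reads in 20 of its 46 pericentral nuclei, against 53 of 63 in the other G0 library, 47 of 56 and 59 of 75 at G14.5, and 65 of 77 and 63 of 74 at P7L. Summed marker levels of other cells were 89.6 to 199 CPM for 9 cholangiocyte genes, 12.7 to 58.0 CPM for 10 stellate cell genes, 12.1 to 30.4 CPM for 10 sinusoidal endothelial genes and 4.79 to 19.0 CPM for 9 Kupffer cell genes. Lymphocyte genes (10) summed to 3.11 to 23.2 CPM, erythroid genes (6) to 0.584 to 9.29 CPM and neutrophil genes (6) to 0.197 to 1.84 CPM. Oat, the ornithine aminotransferase of the index, was listed at 0 in every nucleus, as were 15871 of 40824 genes. Its gene model lies inside that of Fgfr2 in the GENCODE annotation. Whether this overlap gave the 0 was not tested, and the 0 is not read as a lack of expression. The index rests on 5 pericentral genes. With thinning of each nucleus to 250000 reads, the median number of genes with a read in pericentral nuclei was 5559 and 5551 in G0, 5963 and 6162 in G14.5, and 6604 and 7126 in P7L libraries.

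In every list of values below, the liver tissue library of a stage comes before its perfusion library. The median index of all nuclei was 0.498 and 0.502 in G0, 0.466 and 0.218 in G14.5, and 0.337 and 0.0933 in P7L libraries. The median was thus lowest in the P7L perfusion library, and a fixed share of 25% reached further down its index. The index is a ratio of reads, and whether that library held fewer pericentral nuclei was not tested. The lowest member had an index of 0.784 and 0.883 in G0, 0.824 and 0.675 in G14.5, and 0.734 and 0.585 in P7L libraries. The highest nucleus left out had 0.769 and 0.874 in G0, 0.811 and 0.669 in G14.5, and 0.733 and 0.578 in P7L libraries. A fixed index of at least 0.8, chosen after seeing the data, would keep 60 and 58 nuclei in G0, 60 and 54 in G14.5, and 64 and 37 in P7L libraries. Members chosen without Cyp2e1 in the index were 79.37 to 94.81% the same nuclei, depending on the library.

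**Figure D1:**
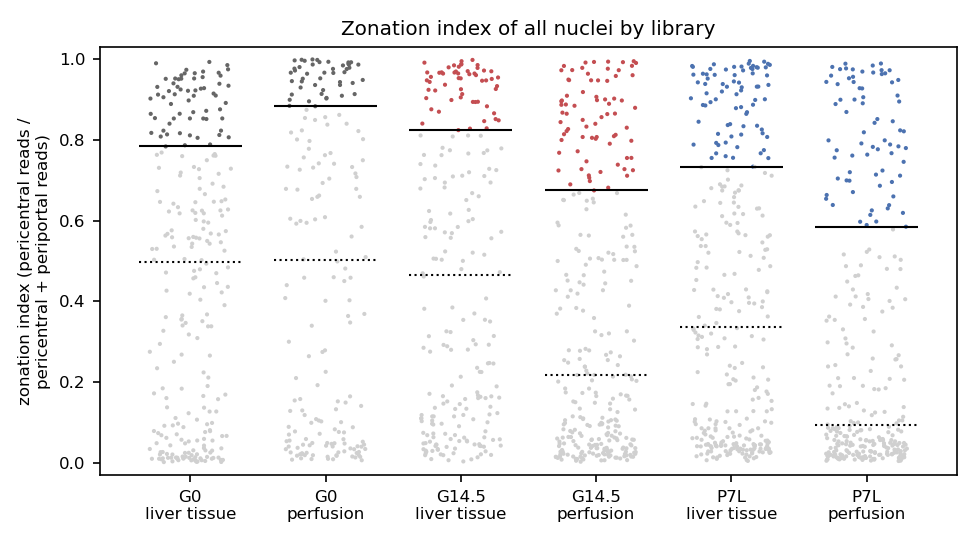
Index of each of the 1567 nuclei by library, on a scale where 1 means that all index reads came from pericentral genes. Coloured points are the pericentral nuclei, solid lines the lowest member and dotted lines the library median, which was lowest (0.0933) in the P7L perfusion library.

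Levels are in CPM of the reads summed over the member nuclei of a library, with trimmed-mean (TMM) scaling over the 6 pericentral and 6 periportal sums. Cyp2e1 had 2553 and 2638 CPM in pericentral nuclei in G0, 922 and 1113 CPM in G14.5, and 1263 and 1416 CPM in P7L libraries. Glul had 193 and 245 CPM in G0, 258 and 142 CPM in G14.5, and 327 and 363 CPM in P7L libraries. Slc1a2 had 964 and 971 CPM in G0, 2316 and 1410 CPM in G14.5, and 2757 and 1854 CPM in P7L libraries. The G0 libraries were thus the highest for Cyp2e1 and the lowest for Slc1a2, and the Cyp2e1 share of the pericentral index reads was 68.1 and 66.8% in G0, 29.1 and 36.4% in G14.5, and 32.6 and 35.4% in P7L libraries. In the periportal nuclei of the same libraries Cyp2e1 was at 16.4 to 56.5 CPM, Glul at 5.26 to 12.7 CPM and Slc1a2 at 2.21 to 11.3 CPM. Cyp1a2 had 166 and 106 CPM in G0, 69.7 and 58.9 CPM in G14.5, and 209 and 218 CPM in P7L libraries in pericentral nuclei. Gulo ranged only from 456 to 612 CPM over the 6 pericentral sums.

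Of the periportal index genes, Gls2, Hal and Pck1 are described too. The nuclei were chosen for few reads of them, with a lowest index that differed between libraries. Values of Cyp2f2, Sds and Hsd17b13 are not given here. Gls2, the liver glutaminase that frees ammonia from glutamine, had 48.6 and 33.0 CPM in pericentral nuclei in G0, 1.06 and 2.42 CPM in G14.5, and 18.6 and 43.6 CPM in P7L libraries. Hal, which starts histidine breakdown, had 53.4 and 31.7 CPM in G0, 5.15 and 4.14 CPM in G14.5, and 18.3 and 38.2 CPM in P7L libraries. Both were lower in the G14.5 libraries than in all 4 others. The rule used these reads to choose the nuclei, so this is no evidence of a stage difference. The share of all genes with such a lack of overlap was not counted. Pck1, a gluconeogenic enzyme, stayed between 86.5 and 442 CPM in pericentral nuclei, against 774 to 1136 CPM in periportal nuclei.

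Outside the index, the transcripts that leaned most to the pericentral side included the Wnt targets Lgr5, which encodes an R-spondin receptor, and Tbx3, a transcription factor. These ratios describe groups cut from the same nuclei and carry no test. Of 4219 genes with at least 20 CPM in all 6 pericentral sums, 332 were higher in pericentral than in periportal nuclei of all 6 libraries, and 45 of those by at least 2-fold in each. At the other end, 40 of 4229 genes with at least 20 CPM in all 6 periportal sums were at least 2-fold higher in periportal nuclei of each library. Lgr5 (chr10:115450311-115587780, minus strand, GRCm38, overlapped on the other strand by A930009A15Rik) had 98.4 and 171 CPM in pericentral nuclei in G0, 72.9 and 45.9 CPM in G14.5, and 216 and 122 CPM in P7L libraries. In periportal nuclei it was at 0.358 to 1.49 CPM, a log2 ratio of pericentral over periportal of 5.76 to 6.81. After thinning to 250000 reads, Lgr5 reads were found in 66.67 and 80.43% of pericentral nuclei in G0, 57.14 and 45.33% in G14.5, and 79.73 and 67.12% in P7L libraries, against 9.33 to 29.3% of periportal nuclei. Tbx3 had log2 ratios of 4.39 to 6.99, and Axin2, a feedback inhibitor of Wnt signalling, of 3.76 to 6.63. Sult3a1, a sulfotransferase, had log2 ratios of 4.66 to 7.06, and the P450 gene Cyp2c38 of 4.38 to 7.69, though genes of these families may share reads. Cyp7a1, the rate-limiting enzyme of bile acid synthesis, had ratios of 2.94 to 4.86, and Ahr, the receptor for dioxin-like compounds, of 2.11 to 3.43. Airn, a noncoding RNA that overlaps Igf2r on the other strand, had ratios of 3.44 to 5.62. Strand use is not stated, so its reads may include those of Igf2r, or reads in the overlap may have been left uncounted.

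The periportal end held Cryl1, with log2 ratios of -7.47 to -6.78, the cell adhesion gene Cdh1 (-6.40 to -4.77), the steroid dehydrogenase gene Hsd17b6 (-7.40 to -4.16), the serine carrier gene Sfxn1 (-6.16 to -2.81) and Gldc, of glycine cleavage (-4.25 to -2.58). By lists, 14 of 17 Wnt-dependent pericentral genes with enough reads were higher in pericentral nuclei of all 6 libraries and 1 was lower, with a median log2 ratio of 2.44. Over all 9677 genes described in this way, 561 (5.8%) were higher and 623 (6.44%) lower in all 6, with a median ratio of -0.03. Of 28 other pericentral genes, 22 were higher and 0 lower (median 1.55). Of 33 P450 and related oxidation genes 20 were higher and 3 lower (median 1.06), and of 28 conjugation genes 13 were higher and 0 lower (median 0.72). Of 24 fatty acid synthesis genes 0 were higher and 10 lower (median -0.41), and of 28 urea cycle and amino acid genes 3 were higher and 12 lower (median -0.29).

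**Figure D2:**
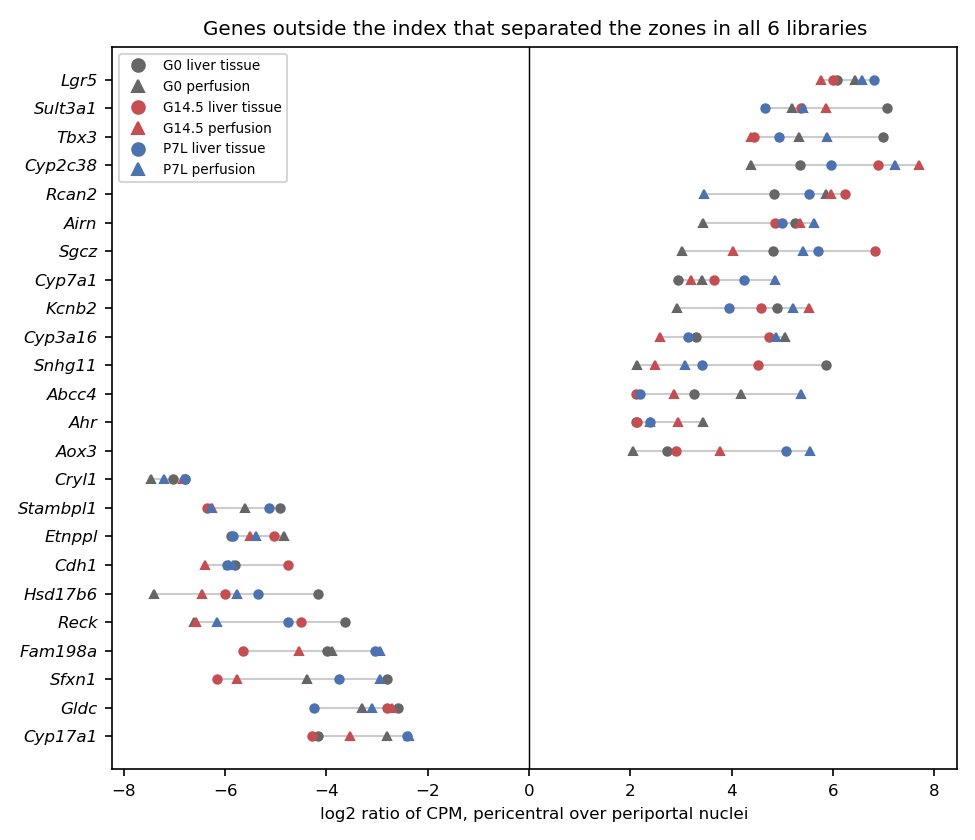
Log2 ratio of CPM in pericentral over periportal nuclei for the leading genes outside the index, with 1 symbol per library (circles liver tissue, triangles perfusion; grey G0, red G14.5, blue P7L). The genes were chosen by their least extreme ratio over the 6 libraries, and that choice puts all 6 symbols on the same side of 0. Ratios ran from 5.76 to 6.81 for Lgr5 and from -7.47 to -6.78 for Cryl1.

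Levels along the index follow as a description only, since Cyp2e1, Glul and Slc1a2 helped to set the bins. Bins of each library by the index (the highest 10%, the rest of the highest 25%, and the 3 lower bins of 25%) are described here in plain CPM. Cyp2e1 in the G0 liver tissue library had 2574, 2518, 1860, 743 and 38.5 CPM from the highest to the lowest bin. Glul there had 434, 64.8, 16.3, 13.4 and 5.49 CPM, and in the P7L perfusion library 965, 59.5, 68.0, 55.5 and 13.5 CPM. In both of these libraries Glul was highest by far in the highest 10%, and Cyp2e1 in the G0 liver tissue library was about as high in the rest of the highest 25%. Slc1a2 in the P7L perfusion library had 5262 CPM in the highest 10% and 115 CPM in the rest of the highest 25%, and in the G0 perfusion library 1354 and 766 CPM. In the liver tissue libraries these bins had 6302 and 846.5 CPM at P7L and 1928 and 449.3 CPM at G0. Lgr5, which was not in the index, had 98.5 CPM in the highest 10% and 7.97 CPM in the rest of the highest 25% of the G14.5 perfusion library, and 196 and 158 CPM in the G0 perfusion library.

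Between stages, edgeR's quasi-likelihood test on the sums of pericentral reads, with a term for liver tissue or perfusion and Benjamini-Hochberg adjustment over 14734 genes, was called at an adjusted p under 0.05. At G14.5 against G0, 472 genes (3.2%) passed, 271 higher (1.84%) and 201 lower (1.36%). At P7L against G0, 31 genes (0.21%) passed, 13 higher (0.0882%) and 18 lower (0.122%). At P7L against G14.5, 322 genes (2.19%) passed, 143 higher (0.971%) and 179 lower (1.21%). The comparisons share libraries: those with G0 share the G0 libraries, and those with G14.5 share the G14.5 libraries. The median log2 difference over all tested genes was 0.006 (G14.5 against G0), 0.011 (P7L against G0) and 0.002 (P7L against G14.5). With scaling by library size alone the split was 225 higher and 235 lower, 14 higher and 11 lower, and 218 higher and 135 lower, in the same order, and the medians were -0.08, 0.14 and 0.22. Leaving out 1 library at a time gave 81 to 1048, 5 to 238 and 53 to 1102 calls. The lowest count came without the G14.5 perfusion library for both comparisons with G14.5, and without the P7L perfusion library for P7L against G0. Without the G0 liver tissue library the counts were the highest. Members with an index of at least 0.8 gave 404, 20 and 344 calls. Of the named genes, 94, 23 and 88 were called in the 3 comparisons, and 35, 5 and 27 of these in every fit with 1 library left out in which they were tested. With the index of at least 0.8, the calls of Cdca2, Asl, Otc, Lrp5, Ces1c, Pmvk, Gstt2 and Dbp at G14.5 against G0 were lost. So were those of Sorcs3, Elovl6, Apoc2, Sult2a3, Hamp, Ces1c, Adamts6 and C3 at P7L against G0, and those of Hamp and of the sulfotransferase gene Sult2a1 at P7L against G14.5. Gene models of Prlr, Egfr, Cp, Ccnd3, Prodh, Serpinc1, Dbp, Pnpla3, Prom1, Ildr2, P2ry1, Tmem140, Fdft1 and Scp2 overlap another gene in the GENCODE annotation. Strand use in counting is not given in the sources used here. The reads of these genes may therefore include those of the neighbour, or reads in the overlap may have been left uncounted.

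The called genes with the largest rises at G14.5 come first. Their ranking by log2 difference set a lowest level only in the higher stage, which favours genes with low levels at G0. Pnpla3, a lipid droplet acylhydrolase, had 3.29 and 1.497 CPM in G0, 411 and 341 CPM in G14.5, and 33.9 and 37.1 CPM in P7L libraries. The G14.5 libraries were above all others and the P7L libraries above both G0 libraries, with log2 differences of 7.36 ± 0.43 (SE; adjusted p = 0.000914) for G14.5 against G0 and 3.96 ± 0.37 (adjusted p = 0.0189) for P7L against G0. Its relative Pnpla5 had 37.1 and 42.8 CPM at G14.5, against 0.0357 and 0 CPM at G0 (adjusted p = 0.00602). Sorcs3, a sorting receptor known from neurons, had 0.554 and 1.22 CPM in G0, 197 and 334 CPM in G14.5, and 31.2 and 32.5 CPM in P7L libraries. It was 8.25 ± 0.43 log2 units higher at G14.5 (adjusted p = 0.000914) and 5.25 ± 0.38 higher at P7L (adjusted p = 0.00814), both against G0.

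Tdrd12, a Tudor domain gene of the germline piRNA pathway, had 68.7 and 51.4 CPM at G14.5, against 0.125 and 0.154 CPM at G0 (log2 difference 8.78 ± 0.74, adjusted p = 0.00329). Efhb rose to 32.5 and 41.3 CPM at G14.5, against 0.214 and 0.210 CPM at G0, and Colgalt2, a collagen galactosyltransferase, to 149 and 101 CPM, against 1.52 and 0.210 CPM. Cdca2, a mitotic protein phosphatase partner, had 56.4 and 22.7 CPM, against 0.0536 and 0.462 CPM, and Prom1, which encodes prominin, 27.3 and 28.2 CPM, against 0.232 and 0.196 CPM. For these 4 genes the adjusted p was 0.0056 to 0.0303. Of the leading higher genes, Pnpla5, Tdrd12, Sorcs3, Pnpla3 and Vwf were called in every fit with 1 library left out in which they were tested. Leaving out 1 G14.5 library ended the calls of Colgalt2, Cdca2 and Prom1 (either library) and of Efhb (perfusion), with adjusted p values up to 0.0741, 0.102, 0.148 and 0.0609.

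Vwf encodes von Willebrand factor, a clotting protein usually made by endothelium. It had 37.7 and 73.4 CPM in pericentral nuclei at G14.5, against 0.214 and 0.490 CPM at G0 (log2 difference 7.34 ± 0.59, adjusted p = 0.00281), and 0.227 and 0.459 CPM at P7L. In periportal nuclei at G14.5 it had 225 and 205 CPM. Reads of Vwf were found in 60.7 and 69.3% of thinned pericentral nuclei at G14.5, against 7.02 and 4.35% at G0. Vwf is also 1 of 6 central vein endothelial markers, and the other 5 summed to 3.40 and 10.7 CPM in G0, 19.3 and 3.84 CPM in G14.5, and 2.87 and 1.99 CPM in P7L libraries. The other 5 were above both G0 libraries in the G14.5 liver tissue library and within their range in the G14.5 perfusion library. The source of the Vwf reads was not tested.

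The largest falls at G14.5 included liver transporters and enzymes. Sult2a3, a hydroxysteroid sulfotransferase, had 115 and 47.8 CPM in G0, 0.118 and 0.152 CPM in G14.5, and 2.59 and 2.87 CPM in P7L libraries, a log2 difference of -9.10 ± 0.73 for G14.5 against G0 (adjusted p = 0.00281). Reads of it were found in 1.79 and 2.67% of thinned pericentral nuclei at G14.5, against 42.1 and 65.2% at G0; reads may be shared within the family. Nxph1, a secreted ligand of neurexins, had 197 and 232 CPM in G0, 0.640 and 1.85 CPM in G14.5, and 92.1 and 80.8 CPM in P7L libraries. Its log2 difference was -7.48 ± 0.54 for G14.5 against G0 (adjusted p = 0.00208) and 6.19 ± 0.51 for P7L against G14.5 (adjusted p = 0.0033). Abcc3, an exporter of bile acids and glucuronides into blood, had 255 and 289 CPM in G0, 3.00 and 5.12 CPM in G14.5, and 305 and 282 CPM in P7L libraries. Its log2 differences were -6.08 ± 0.32 (adjusted p = 0.000914) for G14.5 against G0 and 6.19 ± 0.32 (adjusted p = 0.000688) for P7L against G14.5. The G14.5 libraries did not overlap with the others for any of these 3 genes. All 3 were chosen for a large called change between G14.5 and G0, and the share of all tested genes without overlap was not counted.

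Mfsd2a, a carrier of lysophospholipids, had 54.9 and 40.7 CPM in G0, 1.18 and 0.162 CPM in G14.5, and 42.4 and 57.3 CPM in P7L libraries. Map2k6, a p38 kinase kinase, had 214 and 344 CPM in G0, 14.7 and 8.91 CPM in G14.5, and 172 and 184 CPM in P7L libraries. Both passed in G14.5 against G0 (log2 differences -6.41 ± 0.90 and -4.55 ± 0.39, adjusted p = 0.0193 and 0.00367) and in P7L against G14.5 (6.58 ± 0.92 and 3.90, adjusted p = 0.0209 and 0.00594). Hamp, which encodes the iron hormone hepcidin, had 1506 and 2748 CPM in G0, 56.2 and 50.1 CPM in G14.5, and 235 and 230 CPM in P7L libraries. It passed in all 3 comparisons, with log2 differences of -5.28 ± 0.31 for G14.5 against G0 (adjusted p = 0.000914), -3.17 ± 0.28 at P7L against G0 (adjusted p = 0.0139) and 2.11 for P7L against G14.5 (adjusted p = 0.0144). Without the P7L perfusion library its call at P7L against G0 was lost (adjusted p = 0.0819), and its call at P7L against G14.5 held in 4 of 6 fits with 1 library left out (up to 0.124). The other leading falls were Aspg, an asparaginase, Ildr2 (-5.54 ± 0.42), Gypc and the purine receptor gene P2ry1. Of the 10, 8 were called in every fit with 1 library left out; Aspg was lost without the G14.5 perfusion library (adjusted p = 0.0558) and P2ry1 without either G14.5 library (up to 0.0691). Mfsd2a at P7L against G14.5 was lost without the perfusion library of G14.5 (0.0524) or P7L (0.0539).

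**Figure D3:**
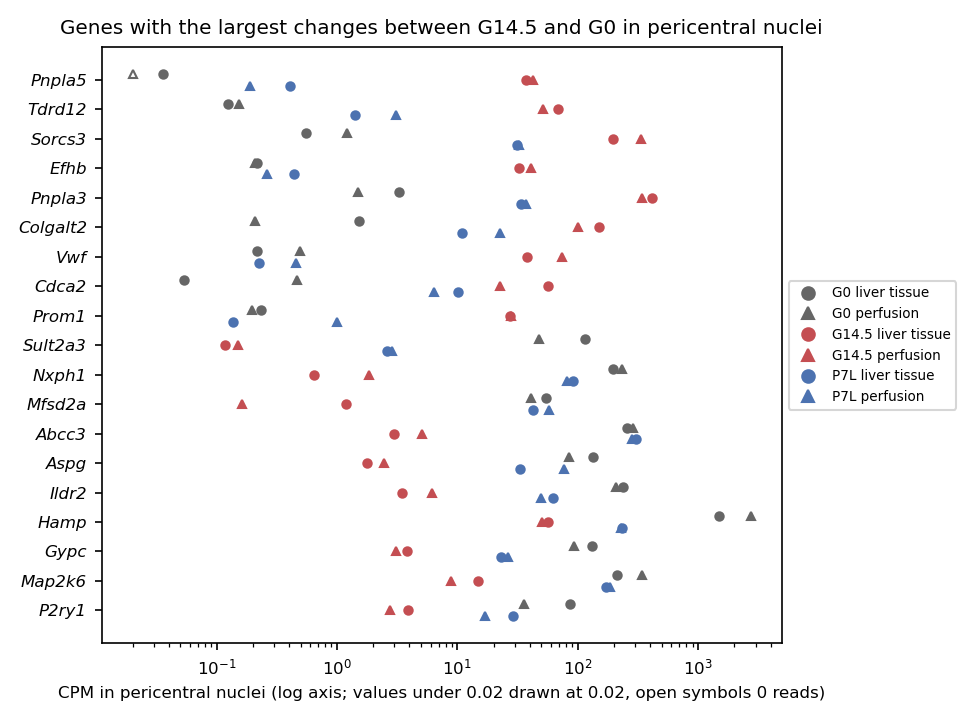
CPM in pericentral nuclei on a log axis for the genes described here with the largest called rises and falls at G14.5 against G0. Each symbol is 1 library (circles liver tissue, triangles perfusion; grey G0, red G14.5, blue P7L; open symbols had 0 reads), and Pnpla3 at G14.5 lies at 411 and 341 CPM, against 3.29 and 1.497 CPM at G0.

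Of 30 listed urea cycle and amino acid genes 28 were tested, and 0 were higher and 10 lower at G14.5 than at G0, a share of lower calls to be read beside 1.36% of all tested genes, with a median log2 difference of -0.72 for the list and 0.006 for all. At P7L against G14.5, 10 were higher and 0 lower (0.971% of all tested genes were higher; list median 0.79, all genes 0.002), and at P7L against G0 none passed. Cps1, which makes carbamoyl phosphate in the first step of the urea cycle (chr1:67123026-67231259, plus strand, GRCm38), had 4743 and 3491 CPM in G0, 652 and 1151 CPM in G14.5, and 3957 and 5019 CPM in P7L libraries. The G14.5 libraries were below all others, with log2 differences of -2.24 ± 0.29 (adjusted p = 0.0139) for G14.5 against G0, 2.32 ± 0.28 (adjusted p = 0.0132) for P7L against G14.5 and 0.08 (adjusted p = 0.928) for P7L against G0. By index bin, Cps1 in the G14.5 liver tissue library had 526, 691, 2014, 3361 and 4320 plain CPM from the highest to the lowest. The G0 liver tissue library had 3662, 5268, 5406, 5772 and 5221. In perfusion libraries the highest and lowest bins had 2463 and 5039 at G0 and 725 and 4340 at G14.5. At P7L they had 2294 and 5267 (liver tissue) and 2979 and 5090 (perfusion). The highest bin was thus below the lowest in every library. The second bin had 5268 and 4080 in G0, 691 and 1283 in G14.5, and 5691 and 6805 in P7L libraries. Asl, the argininosuccinate lyase, had 855 and 776 CPM in G0, 307 and 440 CPM in G14.5, and 1262 and 1893 CPM in P7L libraries. Otc, the ornithine carbamoyltransferase, had 315 and 372 CPM in G0, 152 and 189 CPM in G14.5, and 263 and 332 CPM in P7L libraries. Asl passed in both comparisons with G14.5 (-1.16 ± 0.21, adjusted p = 0.0385; 2.06 ± 0.21, adjusted p = 0.00687), and Otc at G14.5 against G0 (-1.004, adjusted p = 0.0352).

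Prodh, which breaks down proline, had 174 and 227 CPM in G0, 26.6 and 45.3 CPM in G14.5, and 165 and 203 CPM in P7L libraries (-2.50 ± 0.25 for G14.5 against G0, adjusted p = 0.00574). The alanine aminotransferase genes Gpt and Gpt2 and the aspartate aminotransferase gene Got1 were lower at G14.5 too, with log2 differences of -2.03, -1.03 and -1.72 against G0 (adjusted p = 0.0169, 0.0193 and 0.0108). Aass, Ftcd and Uroc1, which act in lysine and histidine breakdown, completed the 10. Ass1, the argininosuccinate synthase, had 534 and 402 CPM in G0, 81.6 and 231 CPM in G14.5, and 947 and 950 CPM in P7L libraries. It passed only at P7L against G14.5 (2.67, adjusted p = 0.0346), and at G14.5 against G0 its adjusted p was 0.0946. The amino acid carrier gene Slc7a2 had 941 and 612 CPM in G0, 105 and 159 CPM in G14.5, and 922 and 1095 CPM in P7L libraries. Another carrier gene, Slc38a4, had 694 and 525 CPM in G0, 83.4 and 146 CPM in G14.5, and 968 and 1112 CPM in P7L libraries. Their log2 differences for G14.5 against G0 were -2.57 ± 0.30 and -2.44 ± 0.29 (adjusted p = 0.0104 and 0.0108), and for P7L against G14.5 2.92 ± 0.30 and 3.19 ± 0.30 (adjusted p = 0.00687 and 0.00546). With 1 library left out, the urea and amino acid list had 3 to 14 lower genes at G14.5 against G0 and 1 to 18 higher at P7L against G14.5. At G14.5 against G0, Cps1, Prodh and Slc38a4 passed in all 6 such fits. Leaving out 1 of the G14.5 libraries ended the others, with adjusted p values up to 0.208 (Asl), 0.2 (Otc, called in 2 of the 6), 0.138 (Gpt), 0.153 (Gpt2), 0.0955 (Got1), 0.0853 (Aass and Ftcd), 0.0798 (Uroc1) and 0.0502 (Slc7a2, liver tissue). At P7L against G14.5, Slc7a2 and Slc38a4 passed in all 6. Cps1 was lost there without the P7L perfusion library (0.0629), Ass1 without either P7L library (up to 0.124), and Asl, Prodh and Gpt2 came to at most 0.0606. With an index of at least 0.8 in every library the list had 8 lower at G14.5 against G0 and 10 higher at P7L against G14.5. The ammonia and periportal lists overlap this one: of 18 tested ammonia and glutamine genes, 1 was higher and 3 lower at G14.5 than at G0 and 3 higher and 0 lower at P7L than at G14.5, and of 30 periportal genes, 2 were higher and 6 lower, and 5 higher and 1 lower. Over all tested genes the shares were 1.84% higher and 1.36% lower, and 0.971% higher and 1.21% lower, in that order. Leaving out 1 library gave 2 to 3 lower ammonia and 1 to 11 lower periportal genes at G14.5 against G0, and 1 to 4 and 1 to 8 higher ones at P7L against G14.5. Of 8 midlobular genes, Upp2 and Igfbp1 were higher and Hamp lower at G14.5 than at G0, but Upp2 came to 0.0689 with 1 library left out.

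Of 24 listed Wnt-dependent pericentral genes, 22 were tested, and Cyp2a5, a coumarin hydroxylase, was the 1 called gene: lower at G14.5 than at G0 and higher at P7L than at G14.5, directions called in 1.36 and 0.971% of all tested genes. In fits without 1 library, 1 to 5 of the list were lower at G14.5 than at G0 and 1 to 8 higher at P7L than at G14.5, where an index of at least 0.8 gave 3. Cyp2a5 had 408 and 430 CPM in G0, 73.3 and 108 CPM in G14.5, and 449 and 437 CPM in P7L libraries, with log2 differences of -2.22 ± 0.22 (adjusted p = 0.00565) and 2.29 ± 0.22 (adjusted p = 0.00558), and it shares near-identical relatives. The median log2 difference of the list was -0.165 at G14.5 against G0, 0.03 at P7L against G0 and 0.65 at P7L against G14.5. Lgr5, at the levels given above, had log2 differences of -1.23 (adjusted p = 0.168), 0.26 (adjusted p = 0.838) and 1.49 (adjusted p = 0.143) in that order. Axin2 had 36.1 and 62.5 CPM in G0, 21.4 and 7.87 CPM in G14.5, and 42.6 and 30.8 CPM in P7L libraries, with no overlap between G14.5 and the other stages but an adjusted p of 0.146 for G14.5 against G0. Tbx3 had 103 and 87.9 CPM in G0, 104 and 109 CPM in G14.5, and 179 and 148 CPM in P7L libraries (0.18 for G14.5 against G0, adjusted p = 0.733). A p that misses the threshold with 2 libraries per stage does not show equal levels. Of 33 listed genes of the Wnt pathway itself, 31 were tested and the R-spondin receptor gene Lgr4 and the co-receptor gene Lrp5 were higher at G14.5 than at G0. Lgr4 had 471 and 618 CPM in G0, 1218 and 1259 CPM in G14.5, and 514 and 408 CPM in P7L libraries (1.20, adjusted p = 0.0319; P7L against G14.5 -1.44, adjusted p = 0.0209). The call of Lgr4 held in 4 of 6 fits with 1 library left out at G14.5 against G0 (adjusted p up to 0.174) and in 3 of 6 at P7L against G14.5 (up to 0.156), and that of Lrp5 in 1 of 6 (up to 0.285). The list then had 0 to 3 higher genes at G14.5 against G0, where 1.84% of all tested genes were higher.

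Among 29 other pericentral genes, all tested, Cyp7a1 and Ces1c were higher and Ces1d and Slco1b2 lower at G14.5 than at G0 (1.84 and 1.36% of all tested genes; 0 to 5 higher and 1 to 4 lower with 1 library left out). Cyp7a1 had 165 and 263 CPM in G0, 764 and 895 CPM in G14.5, and 721 and 639 CPM in P7L libraries. The G0 libraries lay below all others, with log2 differences of 1.98 ± 0.23 (adjusted p = 0.00988) for G14.5 against G0 and 1.69 ± 0.23 at P7L against G0, which missed the threshold (adjusted p = 0.0574). Without the G14.5 perfusion library the first call was lost (adjusted p = 0.0756). The carboxylesterase gene Ces1c had 1608 and 1762 CPM in G0, 2671 and 2692 CPM in G14.5, and 818 and 789 CPM in P7L libraries. Its neighbour Ces1d had 490 and 623 CPM in G0, 277 and 230 CPM in G14.5, and 601 and 687 CPM in P7L libraries. Ces1c passed in all 3 comparisons (0.68, -1.08 and -1.76 for G14.5 against G0, P7L against G0 and P7L against G14.5, adjusted p = 0.0423, 0.0456 and 0.0023). Ces1d passed in both with G14.5 (-1.12 and 1.32, adjusted p = 0.0352 and 0.0248). The members of this cluster may share reads, and leaving out a library ended each of these calls but that of Ces1c at P7L against G14.5 (adjusted p up to 0.44 for Ces1c at P7L against G0 and 0.218 for Ces1d at G14.5 against G0).

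In the list of 35 oxidation enzymes of drug and xenobiotic metabolism, 34 were tested, and 1 was higher and 5 lower at G14.5 than at G0 (1.84 and 1.36% of all tested genes; 0 to 5 higher and 4 to 7 lower with 1 library left out). Fmo5, a flavin monooxygenase, had 464 and 519 CPM in G0, 77.1 and 90.4 CPM in G14.5, and 813 and 928 CPM in P7L libraries, a log2 difference of -2.55 ± 0.16 (adjusted p = 0.00141) for G14.5 against G0 and of 3.36 ± 0.17 (adjusted p = 0.000544) for P7L against G14.5. Cyp2b13 had 246 and 497 CPM in G0, 42.6 and 76.5 CPM in G14.5, and 95.3 and 128 CPM in P7L libraries (-2.61 for G14.5 against G0, adjusted p = 0.00446). At P7L the P450 genes Cyp2c69 and Cyp2c70 were lower than at both earlier stages. Cyp2c69 (chr19:39842814-39886799, minus strand, GRCm38) had 725 and 839 CPM in G0, 985 and 782 CPM in G14.5, and 38.9 and 36.9 CPM in P7L libraries. Its log2 differences were -4.38 ± 0.21 (adjusted p = 0.00165) for P7L against G0, -4.56 ± 0.21 (adjusted p = 0.00039) for P7L against G14.5 and 0.18 (adjusted p = 0.631) for G14.5 against G0. Cyp2c70 had 589 and 675 CPM in G0, 631 and 596 CPM in G14.5, and 86.3 and 114 CPM in P7L libraries (-2.68 ± 0.19, adjusted p = 0.00814, for P7L against G0). Reads may be split among Cyp2c and Cyp2b genes.

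Of 38 listed conjugation genes, 31 were tested; at G14.5 against G0 Gstp1 and Sult3a1 were higher and Gstt1, Gstt2 and Sult1d1 lower (1.84 and 1.36% of all tested genes; 1 to 6 higher and 1 to 5 lower with 1 library left out). The calls of Gstt1 and Gstt2 held in 4 and 2 of those 6 fits (adjusted p up to 0.103 and 0.199). Gstp1, a glutathione transferase, had 16.2 and 18.0 CPM in G0, 150 and 127 CPM in G14.5, and 72.2 and 76.4 CPM in P7L libraries (3.03 ± 0.30, adjusted p = 0.0056). Sult3a1 had 631 and 962 CPM in G0, 2626 and 2147 CPM in G14.5, and 851 and 717 CPM in P7L libraries (1.59 ± 0.24, adjusted p = 0.0225, and 0.114 at most without a G14.5 library). Sult1d1 had 147 and 106 CPM in G0, 6.79 and 9.30 CPM in G14.5, and 106 and 115 CPM in P7L libraries (-3.97 ± 0.36, adjusted p = 0.00418). Among 23 listed transporters, all tested, 1 was higher and 7 lower at G14.5 than at G0 (median -0.78; 1.84 and 1.36% of all tested genes), and 7 were higher and 2 lower at P7L than at G14.5 (median 0.30; 0.971 and 1.21% of all). Slco1a4, an uptake carrier of bile acids and drugs, had 478 and 516 CPM in G0, 48.7 and 54.9 CPM in G14.5, and 464 and 481 CPM in P7L libraries (-3.26 ± 0.18, adjusted p = 0.000914; 3.18 ± 0.18, adjusted p = 0.000916). Its relative Slco1b2 had 3410 and 3553 CPM in G0, 1177 and 1271 CPM in G14.5, and 3152 and 2850 CPM in P7L libraries (-1.50 ± 0.13, adjusted p = 0.00361). Slc10a1, the main bile acid uptake carrier, had 318 and 428 CPM in G0, 209 and 217 CPM in G14.5, and 521 and 601 CPM in P7L libraries, and passed at P7L against G14.5 (1.37, adjusted p = 0.0151). Abcb11, the bile salt export pump, had 861 and 718 CPM in G0, 1038 and 1188 CPM in G14.5, and 581 and 618 CPM in P7L libraries, and was lower at P7L than at G14.5 (-0.91, adjusted p = 0.0482). With 1 library left out, 3 to 8 transporters were lower at G14.5 against G0 and 2 to 10 higher at P7L against G14.5. The calls of Slc10a1 and Abcb11 were lost without any 1 library of G14.5 or P7L (adjusted p up to 0.168 and 0.376).

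Of 24 listed cholesterol synthesis genes, 23 were tested, and 5 were higher at G14.5 and 0 lower than at G0 (list median 1.016; 1.84 and 1.36% of all tested genes). Between 1 and 13 were higher in fits with 1 library left out. The median was 1.22 for P7L against G0, where 0 passed in edgeR. Hmgcs1, which makes the substrate of the rate-limiting step, had 98.5 and 62.7 CPM in G0, 532 and 864 CPM in G14.5, and 239 and 183 CPM in P7L libraries. It was 3.15 ± 0.35 log2 units higher at G14.5 than at G0 (adjusted p = 0.00943), and 1.39 ± 0.33 at P7L, which did not pass (adjusted p = 0.169). The other 4 were Pmvk, Fdps, Fdft1 and Nsdhl, later enzymes of the pathway, with log2 differences of 2.32, 2.36, 1.65 and 1.47 and adjusted p values of 0.0348 to 0.0445. Pmvk was called in 4 of 6 fits with 1 library left out, Fdps and Fdft1 in 2 and Nsdhl in 1 (up to 0.211), each being lost without either G14.5 library, and Hmgcs1 was called in all 6. Of 31 listed genes of fatty acid and triglyceride synthesis 26 were tested, and Elovl2, Fads2, Pnpla3 and Plin2 were higher and the glucose-sensing factor gene Mlxipl lower at G14.5 than at G0 (1.84 and 1.36% of all tested genes; 2 to 10 higher and 0 to 4 lower with 1 library left out). Plin2 and Mlxipl were called in 4 of those 6 fits (up to 0.195 and 0.137). Fads2, a desaturase of long polyunsaturated fatty acids, had 126 and 90.7 CPM in G0, 651 and 908 CPM in G14.5, and 190 and 260 CPM in P7L libraries (2.83 ± 0.28, adjusted p = 0.00605). Elovl2, which elongates such fatty acids, had 202 and 149 CPM in G0, 620 and 598 CPM in G14.5, and 175 and 181 CPM in P7L libraries (1.81, adjusted p = 0.00869, and 0.0762 without the G14.5 perfusion library). Elovl6, which elongates saturated fatty acids, had 187 and 134 CPM in G0, 97.7 and 74.5 CPM in G14.5, and 515 and 527 CPM in P7L libraries. It was higher at P7L than at G14.5 (2.60 ± 0.22, adjusted p = 0.0033) and than at G0 (1.72 ± 0.21, adjusted p = 0.0461, but up to 0.393 with 1 library left out). Lpin1, which makes diacylglycerol, had 270 and 153 CPM in G0, 111 and 86.3 CPM in G14.5, and 584 and 559 CPM in P7L libraries (2.54 for P7L against G14.5, adjusted p = 0.0053, and 0.0565 without the G14.5 perfusion library).

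Of 29 fatty acid oxidation genes 26 were tested, and Cyp4a31, Cd36 and Hadhb were higher and 0 lower at G14.5 than at G0 (1.84 and 1.36% of all tested genes; 1 to 6 higher with 1 library left out). Hadhb was called in 4 of those 6 fits (adjusted p up to 0.123). Cyp4a31, a fatty acid omega-hydroxylase, had 4.00 and 3.18 CPM in G0, 141 and 147 CPM in G14.5, and 20.9 and 26.2 CPM in P7L libraries (5.34 ± 0.39, adjusted p = 0.00208), and its neighbours may share reads. Cd36, a fatty acid uptake receptor, had 30.6 and 38.8 CPM in G0, 182 and 182 CPM in G14.5, and 73.2 and 76.7 CPM in P7L libraries (2.40, adjusted p = 0.00825, and 0.0716 at most without a G14.5 library). Of 17 bile acid synthesis genes, all tested, Cyp7a1, Hsd17b4 and Scp2 were higher at G14.5 than at G0 (1.84% of all tested genes; 0 to 5 with 1 library left out) and none passed at P7L. Hsd17b4 and Scp2 were each called in 4 of those 6 fits (adjusted p up to 0.146).

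Of 32 listed hormone receptor genes, all tested, 3 were higher (Ghr, Prlr and Egfr) at G14.5 than at G0, against 1.84% of all tested genes. Ghr, the growth hormone receptor, had 7429 and 7350 CPM in G0, 27520 and 29510 CPM in G14.5, and 6108 and 5604 CPM in P7L libraries. It was 1.96 ± 0.11 log2 units higher at G14.5 than at G0 (adjusted p = 0.000914), and the difference was -2.30 ± 0.11 at P7L against G14.5 (adjusted p = 0.00039). Prlr, the prolactin receptor, had 2159 and 1941 CPM in G0, 11190 and 13980 CPM in G14.5, and 627 and 659 CPM in P7L libraries. The P7L libraries were below all others, with log2 differences of 2.62 ± 0.15 (adjusted p = 0.000914) for G14.5 against G0, -1.69 ± 0.14 (adjusted p = 0.0129) at P7L against G0 and -4.30 ± 0.16 (adjusted p = 0.000166) for P7L against G14.5. Without either P7L library the call of Prlr at P7L against G0 was lost (adjusted p up to 0.0868). Egfr, the epidermal growth factor receptor, had 1512 and 1749 CPM in G0, 2701 and 3392 CPM in G14.5, and 863 and 1097 CPM in P7L libraries (0.90 ± 0.13, adjusted p = 0.0183; P7L against G14.5 -1.65, adjusted p = 0.00274). Without a G14.5 library the call of Egfr at G14.5 against G0 was lost (adjusted p up to 0.144).

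Among 19 listed genes of JAK-STAT signalling and its targets 17 were tested. At P7L against G0, 0 were higher and 3 lower (Igf1, Socs2 and Cux2; median -0.54), and at P7L against G14.5, 0 were higher and 4 lower (those and Gadd45g; median -0.74), where 0.122 and 1.21% of all tested genes were lower. The counts of lower genes were 1 to 3 and 1 to 7 with 1 library left out, and at P7L against G14.5 Cux2 and Gadd45g were called in 2 of 6 fits each (adjusted p up to 0.0806 and 0.211). Igf1, the insulin-like growth factor that growth hormone drives in liver (chr10:87858265-87937042, plus strand, GRCm38, overlapped by the antisense Igf1os), had 1722 and 1978 CPM in G0, 547 and 753 CPM in G14.5, and 184 and 235 CPM in P7L libraries. The stages did not overlap, with log2 differences of -1.52 ± 0.15 (adjusted p = 0.0056) for G14.5 against G0, -3.16 ± 0.16 (adjusted p = 0.00165) at P7L against G0 and -1.65 ± 0.15 (adjusted p = 0.00466) for P7L against G14.5. Leaving out the G14.5 liver tissue library took the first to 0.0508, and leaving out the G14.5 perfusion library took the last to 0.0565. Socs2, a feedback inhibitor of the growth hormone receptor, had 137 and 254 CPM in G0, 263 and 331 CPM in G14.5, and 14.4 and 16.7 CPM in P7L libraries. It was lower at P7L than at G0 (-3.61 ± 0.27, adjusted p = 0.00814, and 0.0541 without the P7L perfusion library) and than at G14.5 (-4.26 ± 0.28, adjusted p = 0.00128). Cux2, a transcription factor of the female liver, had 542 and 512 CPM in G0, 626 and 507 CPM in G14.5, and 193 and 180 CPM in P7L libraries (-1.51 ± 0.17 for P7L against G0, adjusted p = 0.0326, and up to 0.329 with 1 library left out). Igfbp1, an IGF-binding protein gene, had 50.9 and 16.6 CPM in G0, 266 and 416 CPM in G14.5, and 68.0 and 116 CPM in P7L libraries (3.35 for G14.5 against G0, adjusted p = 0.039, and 0.155 at most without a G14.5 library).

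Of 37 acute phase and plasma protein genes 35 were tested, and 6 were higher and 2 lower at G14.5 than at G0 (median 0.82), while 3 were higher and 8 lower at P7L than at G14.5 (median -0.845). Over all tested genes 1.84% were higher and 1.36% lower, and 0.971% higher and 1.21% lower, in that order. With 1 library left out, 5 to 11 of the list were higher and 0 to 3 lower at G14.5 than at G0, and 0 to 4 higher and 5 to 15 lower at P7L than at G14.5. Serpina6, which carries corticosteroids in plasma (chr12:103646630-103657212, minus strand, GRCm38), had 163 and 176 CPM in G0, 3435 and 3445 CPM in G14.5, and 177 and 168 CPM in P7L libraries. It was 4.35 ± 0.15 log2 units higher at G14.5 than at G0 (adjusted p = 0.000148), and the difference was -4.34 ± 0.15 at P7L against G14.5 (adjusted p = 0.000151). Cp, the copper carrier ceruloplasmin, had 651 and 533 CPM in G0, 3190 and 3600 CPM in G14.5, and 403 and 299 CPM in P7L libraries (2.54 ± 0.19, adjusted p = 0.00215). Serpina1e, of the alpha-1-antitrypsin family whose members may share reads, had 13.3 and 4.90 CPM in G0, 537 and 413 CPM in G14.5, and 25.7 and 22.0 CPM in P7L libraries (5.83 ± 0.39, adjusted p = 0.00196). These 3 genes were called in all 6 fits with 1 library left out, in both comparisons with G14.5. The other higher genes were Vwf, the antithrombin gene Serpinc1 (1.72, adjusted p = 0.00292) and Itih4 (1.54, adjusted p = 0.0156), and the lower ones Orm3 and C9. At G14.5 against G0, Serpinc1 was called in all 6 of those fits, Itih4 in 4 (adjusted p up to 0.124), C9 in 4 (up to 0.16) and Orm3 in 5 (up to 0.0851).

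Of 37 listed cell cycle genes, 35 were tested; Mki67, a proliferation marker, was higher and Ccnd3, a D-type cyclin, lower at G14.5 than at G0, with a list median of 2.08 (1.84 and 1.36% of all tested genes). The count of higher genes was 0 to 4 with 1 library left out, 3 with an index of at least 0.8 and 0 to 14 over the other fits tried. Mki67 had 0.197 and 0.112 CPM in G0, 29.4 and 5.61 CPM in G14.5, and 5.14 and 9.92 CPM in P7L libraries (6.65 for G14.5 against G0, adjusted p = 0.0319, and 0.17 without the G14.5 liver tissue library). Ccnd3 had 258 and 247 CPM in G0, 34.4 and 27.1 CPM in G14.5, and 306 and 310 CPM in P7L libraries (-3.04 ± 0.22, adjusted p = 0.00208). The list median was also above 0 at P7L against G0 (1.769), where 0 of the list passed. Only 15 of the 37 listed genes had enough reads for the zone ratios above, so these medians rest largely on genes with few reads. Among 10 genes of cycling cells, reads of 3 or more were found after thinning in 0 of 57 and 0 of 46 at G0, 9 of 56 (16.07%, 95% exact binomial interval 7.62 to 28.3%) and 5 of 75 (6.667%, 2.2 to 14.9%) at G14.5, and 4 of 74 and 3 of 73 at P7L. The counts of 0 at G0 allow shares of up to 5.263 and 6.522% by the limit of 3 counts, and the exact binomial upper bounds are 6.267 and 7.706%. With 2 libraries against 2, no exact permutation test of these shares can go below p = 0.333. In periportal nuclei the counts were 1 of 59 and 1 of 46 in G0, 2 of 56 and 2 of 75 in G14.5, and 4 of 75 and 2 of 74 in P7L libraries.

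Clock genes also differed. The hour of sampling is not given in the sources used here, so time of day and stage cannot be told apart. This limit holds for every gene compared between stages here. Of 18 listed 16 were tested, and the core activator gene Arntl was higher and its output genes Dbp, Tef and Hlf lower at G14.5 than at G0 (1.84 and 1.36% of all tested genes; 0 to 3 higher and 0 to 4 lower with 1 library left out). Arntl had 17.3 and 20.3 CPM in G0, 161 and 113 CPM in G14.5, and 28.4 and 30.3 CPM in P7L libraries (2.87, adjusted p = 0.0108). Dbp, Tef and Hlf had log2 differences of -2.87, -1.61 and -1.54 (adjusted p = 0.0374, 0.0385 and 0.0127). All 4 calls were lost without either G14.5 library (up to 0.193), and Dbp was called in 1 of 6 fits with 1 library left out. Of 18 tested genes of immediate early and heat shock responses, of 21 listed, 0 passed in any comparison in edgeR. Between 0.21 and 3.2% of all tested genes passed in the 3 comparisons. For the next list, 1.36% of all tested genes were lower at G14.5 than at G0 and 0.971% higher at P7L than at G14.5. Of 14 heme synthesis and breakdown genes, Fech was lower at G14.5 than at G0 and Blvrb higher at P7L than at G14.5, called in 4 and 2 of 6 fits with 1 library left out (adjusted p up to 0.182 and 0.255).

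Further genes separated P7L from G0. Chrna4, a nicotinic acetylcholine receptor subunit, had 0.429 and 0.350 CPM in G0, 34.7 and 18.3 CPM in G14.5, and 59.3 and 74.5 CPM in P7L libraries (7.44 ± 0.59 for P7L against G0, adjusted p = 0.00871). Pvt1, a long noncoding RNA beside Myc, had 16.7 and 19.1 CPM in G0, 179 and 173 CPM in G14.5, and 175 and 163 CPM in P7L libraries (3.23 ± 0.25, adjusted p = 0.00871). Blm, a DNA helicase, had 22.4 and 18.4 CPM in G0, 55.1 and 68.3 CPM in G14.5, and 150 and 193 CPM in P7L libraries (3.04 ± 0.31, adjusted p = 0.025). The 2 P7L libraries were above both G0 libraries for all 3, which were chosen as genes called higher at P7L. Tmem140, Ccrn4l, Apoc2 and Ttc39c were also higher at P7L, with log2 differences of 2.64, 2.19, 1.71 and 1.63. Wsb1, a ubiquitin ligase adaptor, had 579 and 584 CPM in G0, 121 and 183 CPM in G14.5, and 37.3 and 58.4 CPM in P7L libraries (-3.66 ± 0.25, adjusted p = 0.00814). Adamts6 and the complement gene C3 were lower too, with log2 differences of -2.21 and -1.79. Of 23 named genes called at P7L against G0, 5 were called in every fit with 1 library left out: Sorcs3, Cyp2c69, Wsb1, Igf1 and Cyp2c70. Pnpla3 and Chrna4 came to 0.0541 without the P7L perfusion library, Pvt1 to 0.0541 without either P7L library and Blm to 0.291.

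Of genes that separated P7L from G14.5, Prex2, a guanine exchange factor, had 66.3 and 44.7 CPM in G0, 5.14 and 4.40 CPM in G14.5, and 118 and 67.3 CPM in P7L libraries (4.21, adjusted p = 0.00455). Mme, which encodes the peptidase neprilysin, had 13.3 and 23.9 CPM in G0, 2.59 and 7.44 CPM in G14.5, and 71.1 and 82.6 CPM in P7L libraries (4.10, adjusted p = 0.0132). The complement gene C9 had 45.2 and 10.7 CPM in G0, 1.92 and 1.08 CPM in G14.5, and 46.3 and 55.7 CPM in P7L libraries (5.23, adjusted p = 0.0189). In the other direction, Dnah11, a dynein heavy chain gene that overlaps Cdca7l, had 1.98 and 2.14 CPM in G0, 160 and 207 CPM in G14.5, and 1.18 and 2.43 CPM in P7L libraries (-6.73, adjusted p = 0.00128). Nckap5 had 24.9 and 71.4 CPM in G0, 920 and 755 CPM in G14.5, and 20.1 and 12.3 CPM in P7L libraries (-5.70, adjusted p = 0.00687). Prex2, Dnah11 and Nckap5 were called in all 6 fits with 1 library left out. Mme came to 0.0948 and C9 to 0.159 at most.

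**Figure D4:**
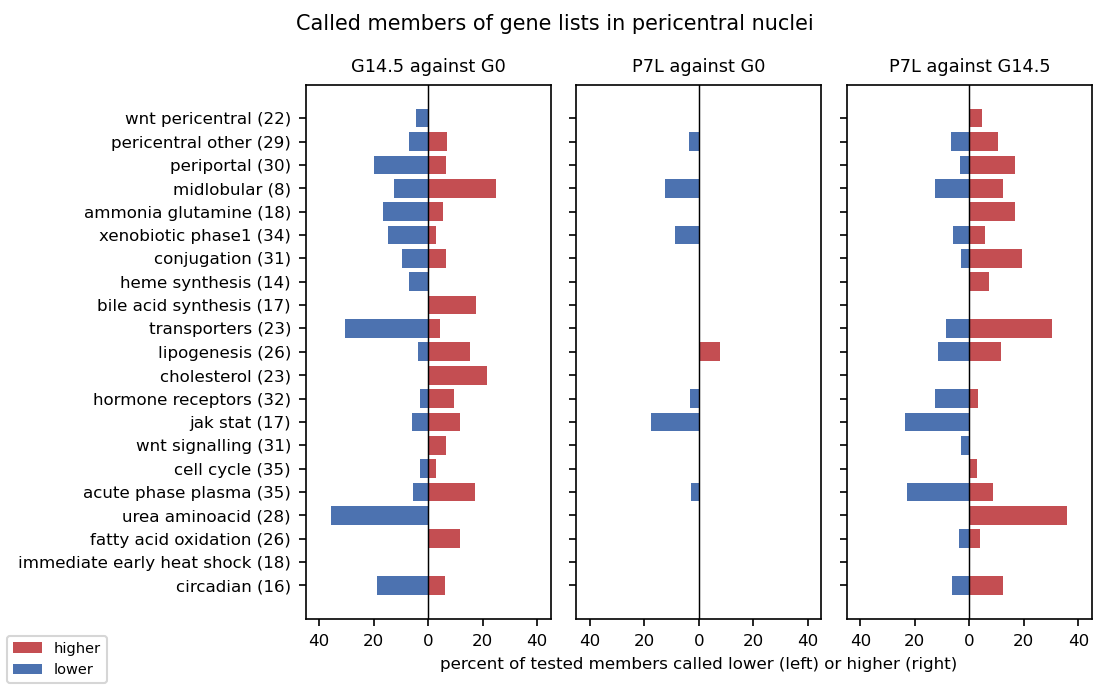
Percent of the tested members of each gene list (number tested in brackets) called higher (red, right) or lower (blue, left) in pericentral nuclei, in 3 panels for the 3 comparisons. The urea cycle and amino acid list has 10 of 28 lower at G14.5 against G0 and 10 of 28 higher at P7L against G14.5, and most lists have no called member at P7L against G0.

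Whether a stage changed pericentral nuclei differently from periportal nuclei of the same libraries was tested with edgeR as a difference of differences over 15519 genes. In edgeR 0 genes (0%) passed in any of the 3 comparisons, with 1158 (G14.5 against G0), 887 (P7L against G0) and 643 (P7L against G14.5) at an unadjusted p under 0.05. The lowest adjusted p values were 0.102, 0.857 and 0.107. With 1 library left out the counts were 0 to 5, 0 to 7 and 0 to 9, the highest each time without the G0 liver tissue library. So none of the stage changes above can be called particular to the pericentral nuclei, and the values of the genes with the smallest p follow as a description of that difference. Positive values mean that the pericentral change was the more positive one.

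Cps1 had 652 and 1151 CPM in pericentral nuclei at G14.5, against 4672 and 4734 CPM in periportal nuclei, and 4743 and 3491 CPM against 5283 and 5163 CPM at G0. At P7L it had 3957 and 5019 CPM in pericentral and 4797 and 4822 CPM in periportal nuclei. The difference of differences was -2.08 ± 0.28 log2 units (adjusted p = 0.333) for G14.5 against G0 and 2.33 ± 0.28 (adjusted p = 0.199) for P7L against G14.5. Aspg had 1.77 and 2.44 CPM in pericentral nuclei at G14.5, against 163 and 196 CPM in periportal nuclei, and at G0 134 and 84.1 CPM against 551 and 354 CPM (-4.37 ± 0.39, adjusted p = 0.102). Rad51b, a recombination gene, had 75.0 and 14.52 CPM in pericentral nuclei at G14.5, against 48.4 and 6.56 CPM in periportal nuclei, and at G0 51.1 and 96.1 CPM against 530 and 786 CPM (4.09 ± 0.37, adjusted p = 0.102). Cyp2c69 had 985 and 782 CPM in pericentral nuclei at G14.5, against 26.8 and 17.2 CPM in periportal nuclei, and at G0 725 and 839 CPM against 185 and 88.3 CPM (2.75 ± 0.32, adjusted p = 0.243). At P7L both zones were low for Cyp2c69, at 38.9 and 36.9 CPM in pericentral and 11.8 and 8.12 CPM in periportal nuclei (-3.41 ± 0.32 for P7L against G14.5, adjusted p = 0.107). Ces1d had 277 and 230 CPM in pericentral nuclei at G14.5, against 40.5 and 28.8 CPM in periportal nuclei, and at P7L 601 and 687 CPM against 486 and 571 CPM (-2.60, adjusted p = 0.107). Serpina6 had 177 and 168 CPM in pericentral nuclei at P7L, against 59.8 and 48.3 CPM in periportal nuclei, and at G14.5 3435 and 3445 CPM against 3886 and 3660 CPM (1.82 ± 0.19, adjusted p = 0.107). Hamp had 56.2 and 50.1 CPM in pericentral nuclei at G14.5, against 263 and 146 CPM in periportal nuclei, and at G0 1506 and 2748 CPM against 2184 and 2503 CPM (-1.68, adjusted p = 0.314). Aox3, an aldehyde oxidase, had 1223 and 1034 CPM in pericentral nuclei at P7L, against 35.8 and 21.8 CPM in periportal nuclei, and at G0 797 and 618 CPM against 120 and 149 CPM (2.94, adjusted p = 0.857).

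**Figure D5:**
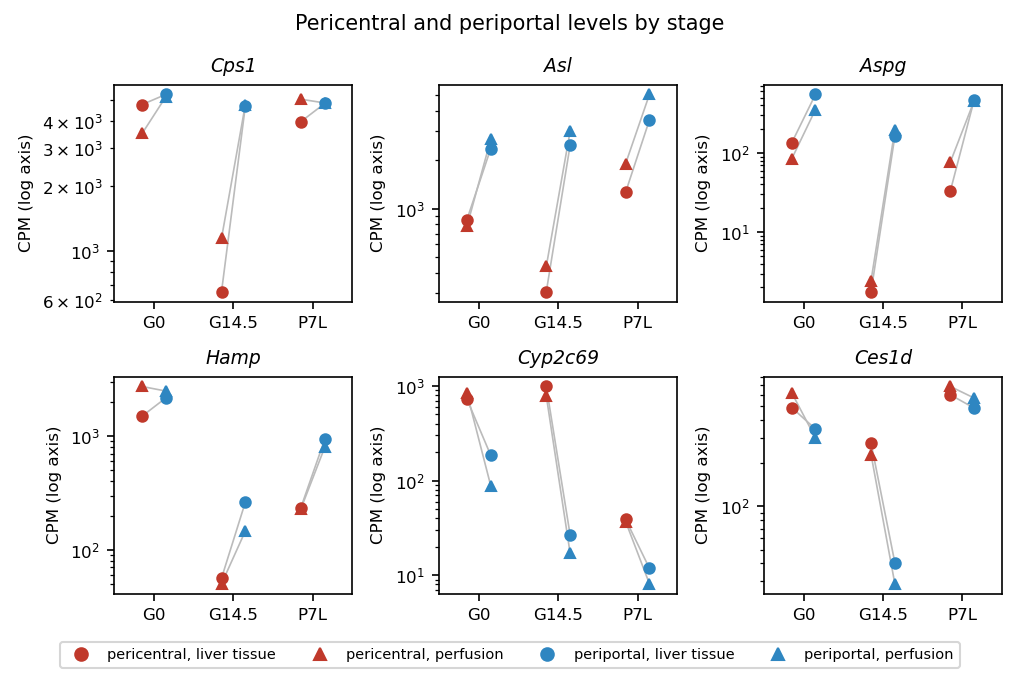
CPM on a log axis of 6 genes in pericentral (red) and periportal (blue) nuclei by stage, with circles for liver tissue and triangles for perfusion libraries and a line joining the zones of a library. For Cps1 the zones lie close at G0 and P7L and apart at G14.5 (652 and 1151 CPM pericentral, 4672 and 4734 CPM periportal), a difference that did not pass the test (adjusted p = 0.333).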

How the data were processed

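The authors deposited a table of read counts per gene for 1567 nuclei in 6 libraries and a table on a TPM-like scale, a score that sums to between 100214 and 134901 per nucleus against a nominal 100000. Per the submitters' processing notes, the tools were Trimmomatic 0.39, then HISAT2 2.1.0, then featureCounts 1.5.3, and the build was GRCm38 (mm10); strand use, the annotation and any filtering of nuclei are not given in the sources used here. The deposited counts were used without further filters or a doublet caller. No 2 nuclei were identical (0 pairs), and 92 spike-in rows held 0 reads and were left out.

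Counts were summed per library over its pericentral and over its periportal nuclei, so that the library is the replicate. Each stage has 2 libraries, 1 per preparation, and the preparation was a term of the fit. Genes passed edgeR's filterByExpr and were detected in 5% or more of the summed nuclei in 2 or more libraries; the 12 index genes were left out. The tests used edgeR 4.0.16 in R 4.3.3 (quasi-likelihood F test, TMM scaling, two-sided), with 2 residual degrees of freedom, a prior of 4.9 and a biological coefficient of variation of 0.544 (0.535 for the zone by stage fit). They were also run on simulated counts with a smaller spread than the real data and no preparation effect. That run cannot show their error rate in these data. Alternatives used limma 3.58.1, DESeq2 1.42.0, other scalings, filters, index definitions and left-out libraries, and, on the deposited score, pseudocounts of 1 and 0.1.

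Genes were named by rule: per comparison up to 10 called genes in each direction with the largest log2 change, a level of 20 CPM or more in each library of the stage that was higher, detection in 20% of its nuclei and the same direction in both preparations; from each list, the 4 or fewer members of lowest p; and the leading genes of the zone and zone by stage comparisons. Other members named were called members of a list, chosen after their values were seen, and the index genes. Some genes that the rule names are not reported here. The members and lists were chosen with earlier results of these data known. Log2 ratios of zones used a prior of 0.5 CPM. For shares of nuclei with a read, reads were drawn down to 250000 per nucleus, and 10 of 391 pericentral nuclei with fewer were left out; intervals (Clopper-Pearson, 95%) and limits of 3 counts for a 0 cover counting error only. Gene positions and overlaps come from the GENCODE annotation of GRCm38.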

Additional observations from a re-analysis of the deposited data

How the results depend on the processing

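Counts of called genes depended on the tool, the filter and the index more than on scaling. For G14.5 against G0 (472 genes), DESeq2 gave 2201, the authors' scaled values 61 (pseudocount 1) or 312 (pseudocount 0.1), the highest 10% of the index 104 and the highest 33.3% 777. For P7L against G0 (31 genes) the counts were 979 with DESeq2, 0 and 6 on the authors' values (with limma), 10 in the highest 10%, 19 with filterByExpr alone, 49 with no filter, 16 with the index without Cyp2e1, 12 with a rank index and 20 with an index of at least 0.8, added after seeing the data. For P7L against G14.5 (322 genes) they were 1402 with DESeq2, 51 with pseudocount 1, 84 in the highest 10% and 516 in the highest 33.3%. Leaving out 1 library gave 81 to 1048, 5 to 238 and 53 to 1102 calls in the same order, and 0 to 5, 0 to 7 and 0 to 9 for the zone by stage difference. The cause of these moves was not tested.

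The preparation served as the replicate block in the fit reported. Without that block, 681, 47 and 469 genes passed. Replicate numbers otherwise follow accession order and pair nothing.

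Of the named genes, 94, 23 and 88 were called in the 3 comparisons; 20, 0 and 18 were called in every fit, and 94, 23 and 87 kept their direction in every fit. Directions changed for Sult2a1 (-0.082) and Hamp2 (-0.35) at P7L against G14.5 in the highest 10%, and at P7L against G0 for Btg2 (-0.41) and Arntl (-0.32) in the highest 10% and without the G0 liver tissue library for Bhlhe40 (-1.36 to 0.288 with 1 library left out) and Egr1 (-3.119 to 0.193); of these only Sult2a1 had been called, a call also lost with the index of at least 0.8. With nuclei thinned to 250000 reads, 513, 29 and 373 genes passed in the 3 comparisons. Whether depth limited the named genes was not tested, and 2 libraries per stage limit every test.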
